A study of Homo sapiens with 4 samples.

Results

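The 10 genes described here encode the heat shock chaperones of the cytosol and nucleus, together with HSF1, the transcription factor that drives them in stressed cells. They are HSPA1A, HSPA1B, HSPA4, HSPA8, HSPH1, HSP90AA1, HSP90AB1, DNAJB1, HSPB1 and HSF1. Members were chosen by name, and their probes were found through the RefSeq transcript that the array files list for each probe. All 10 genes had at least 1 probe, giving 19 probes of 58201 on the array and 10 genes of the 22439 that could be named.

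The expression arrays were made from A549 cells, an established human lung adenocarcinoma line. The arrays numbered 4. A single array each came from cells transfected with miR-486-5p and with miR-486-3p, the mature strands of a single miRNA precursor, and 2 mock arrays came from cells given the transfection reagent Lipofectamine RNAiMAX alone. All cells received that reagent, and none of these arrays came from cells given a control miRNA, so a response to a particular strand and a response to any transfected small RNA cannot be told apart. Each strand had 1 array, and the time between transfection and RNA extraction is not given for the arrays in the sources used here. Whether the mock arrays came from separate cultures is not stated, so the p-values measure the spread between these 2 arrays, which may be technical.

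Chaperones bind proteins that are being made, unfolded or damaged and help them reach or keep their folded form. HSP70 proteins take up unfolded stretches with the help of J-domain proteins such as DNAJB1, HSP110 proteins recharge HSP70 by exchanging its nucleotide, HSP90 proteins finish the folding of kinases and hormone receptors, and small heat shock proteins such as HSPB1 hold unfolded proteins in solution. In unstressed cells the chaperones keep HSF1 inactive. When unfolded proteins occupy them, HSF1 forms trimers and binds heat shock elements, which are repeats of a short GAA unit in alternating orientation, in the promoters of the chaperone genes. Many carcinomas hold this system at a high level, and HSP90 clients include several growth factor receptors.

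The miR-486-3p array held lower signal than both mock arrays at every one of the 19 probes, where 40.9% of all probes did. HSP90AB1, the constitutive cytosolic HSP90, HSPB1, HSF1, the HSP70 co-chaperone DNAJB1 and the constitutive HSP70 HSPA8 fell under miR-486-3p to between 25.5% and 49.0% of the mock level. HSPH1 and HSP90AA1 fell less, to 72.2% and 74.2% of mock, and their calls were lost with quantile normalization and with the deposited values. HSPA4, HSPA1A and HSPA1B did not pass the test by limma under miR-486-3p, where it called 24.2% of all probes lower and 28.1% higher. On the miR-486-5p array no probe of these genes passed the test after adjustment, where only 7.56% of all probes did, and the lowest member was DNAJB1 at 69.8% of mock. Signal in bulk RNA is a mean over all cells, so fewer cells carrying a transcript and less of it per cell cannot be told apart.

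Heat shock elements were looked for in the promoter windows that RefSeq gives for GRCh38.p14, 250 bases before to 50 after each transcription start. The letters searched were GAANNTTC and TTCNNGAA, each its own reverse complement so that 1 strand covers both and spanning 2 units, and the pair of 3-unit forms in which a further unit follows after 2 free bases, each the other's reverse complement and each containing both 2-unit forms. Of 35116 windows, 6.77% held GAANNTTC, 7.74% held TTCNNGAA, 13.5% held either and 0.490% held a 3-unit form. Counted by gene over 27305 genes, the shares with either and with a 3-unit form were 16.2% and 0.608%. The members had 14 windows for 9 genes, HSF1 having none in the table. A 2-unit form stood in a window of 7 of these 9 genes and a 3-unit form in 3 of them, namely HSPA8, HSP90AA1 and HSP90AB1. HSPA4 and HSPH1 held neither, which says only that these letters are not in those windows.

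The 250 bases before a start are shown for the members whose elements differ most in number and spacing, with the elements in capitals. For HSP90AA1, HSP90AB1 and DNAJB1 the start shown is a single one among several in the table of starts. HSPA8 lies at chr11:123062137-123062386 on the minus strand, HSP90AA1 at chr14:102087045-102087294 on the minus strand, HSP90AB1 at chr6:44247693-44247942 on the plus strand, DNAJB1 at chr19:14518398-14518647 on the minus strand, HSPB1 at chr7:76302423-76302672 on the plus strand and HSPA1A at chr6:31815293-31815542 on the plus strand.
HSPA8: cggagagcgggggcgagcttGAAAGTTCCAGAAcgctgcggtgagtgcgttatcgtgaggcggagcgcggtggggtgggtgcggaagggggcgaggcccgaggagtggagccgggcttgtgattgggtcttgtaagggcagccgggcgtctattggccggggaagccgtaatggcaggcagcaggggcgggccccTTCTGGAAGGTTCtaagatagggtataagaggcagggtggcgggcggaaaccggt
HSP90AA1: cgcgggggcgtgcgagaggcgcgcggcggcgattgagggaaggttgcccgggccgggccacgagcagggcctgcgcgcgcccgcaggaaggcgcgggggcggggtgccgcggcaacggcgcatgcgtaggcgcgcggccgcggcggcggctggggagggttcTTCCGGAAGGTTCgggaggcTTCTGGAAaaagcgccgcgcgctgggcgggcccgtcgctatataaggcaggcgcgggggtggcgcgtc
HSP90AB1: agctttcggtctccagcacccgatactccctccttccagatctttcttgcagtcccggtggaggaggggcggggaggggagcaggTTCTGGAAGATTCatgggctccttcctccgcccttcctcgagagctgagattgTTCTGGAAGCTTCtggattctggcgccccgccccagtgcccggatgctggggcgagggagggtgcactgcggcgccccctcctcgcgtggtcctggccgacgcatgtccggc
DNAJB1: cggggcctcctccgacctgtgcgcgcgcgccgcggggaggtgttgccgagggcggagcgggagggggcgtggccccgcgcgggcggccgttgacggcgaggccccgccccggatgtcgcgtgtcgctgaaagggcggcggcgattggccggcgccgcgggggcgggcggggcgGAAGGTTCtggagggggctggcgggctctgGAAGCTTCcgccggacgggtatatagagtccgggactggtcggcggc
HSPB1: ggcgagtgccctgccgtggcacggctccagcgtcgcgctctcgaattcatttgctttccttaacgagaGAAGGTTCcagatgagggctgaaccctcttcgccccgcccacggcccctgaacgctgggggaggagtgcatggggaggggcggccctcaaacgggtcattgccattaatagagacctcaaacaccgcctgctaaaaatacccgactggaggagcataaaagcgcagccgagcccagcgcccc
HSPA1A: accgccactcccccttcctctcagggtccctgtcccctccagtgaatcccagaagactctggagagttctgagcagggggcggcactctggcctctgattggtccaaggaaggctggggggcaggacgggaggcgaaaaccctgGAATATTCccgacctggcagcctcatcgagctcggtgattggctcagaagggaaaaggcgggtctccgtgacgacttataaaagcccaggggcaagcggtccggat

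In the windows shown, HSPA8 and HSP90AB1 each carried a pair of 3-unit elements, and HSP90AA1 carried 1 of them with a 2-unit element closer to its start. The windows at the other starts of HSP90AB1 and HSP90AA1 held 0 elements. DNAJB1 had 2 separate 2-unit elements before the start shown, and HSPB1 and HSPA1A had 1 each. At another DNAJB1 start a 2-unit element stood just after the start, at positions 2 to 9, and its remaining window held 0. For HSP90AB1, HSP90AA1 and DNAJB1 the window shown lay downstream of another start of the same gene. The window of HSPA1B was 92.0% identical to that of HSPA1A, with 277 identical positions, 22 mismatches and 2 gaps, and held the same 8 letters, GAATATTC, 105 bases before its start.

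**Figure D1:**
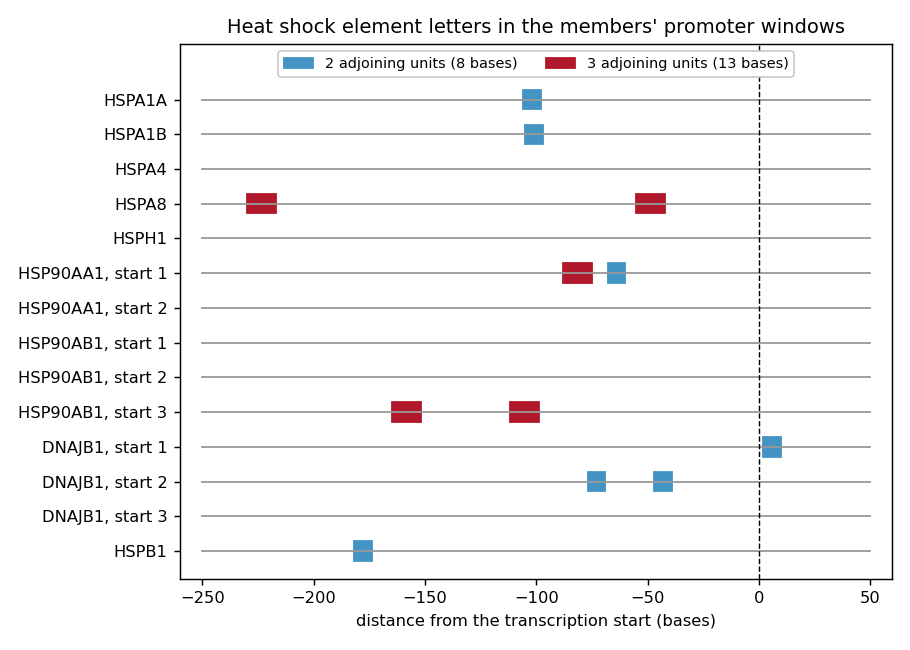
Position of the heat shock element letters in the 14 promoter windows of 9 members, in bases from the transcription start (dashed line at 0), with several starts of a gene numbered by genome coordinate; blue boxes are 8-base elements and red boxes 13-base elements. The 3-unit elements stand in windows of HSPA8, HSP90AA1 and HSP90AB1, and HSPA4 and HSPH1 hold no element.

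The 19 probes were well above background on all 4 arrays, none was saturated, and the values below are log2 signals relative to each array's 75th percentile. All 4 arrays lay on 1 slide. The mock arrays differed at the member probes with an SD of 0.0910 (n = 19 probes, largest difference 0.170), against 0.196 over 28246 probes of the array that were well above background throughout. The arrays were checked against markers of the line. Of those with a probe, 4 of 6 epithelial genes, 5 of 6 enzymes known to be high in A549 and 2 of 4 alveolar genes were detected on every array, CDH1 and SFTPB being detected on none. Mock levels were 6.06 and 6.09 for KRT18 and 4.02 and 4.03 for KRT7. They were -2.33 and -2.38 for KRT19, -2.40 and -2.28 for AKR1C1, and -3.31 and -2.63 for ALDH3A1. Of 7 markers of leukocytes, endothelium and fibroblasts, 4 were detected, PTPRC, CD3E, CDH5 and DCN, at mock levels between -4.33 and -1.39, with miR-486-3p differences from -0.69 for CDH5 to 1.89 for DCN. Detection alone thus does not set all markers of the line apart from those of other cells. The part of the other-cell markers in the results was not tested.

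**Figure D2:**
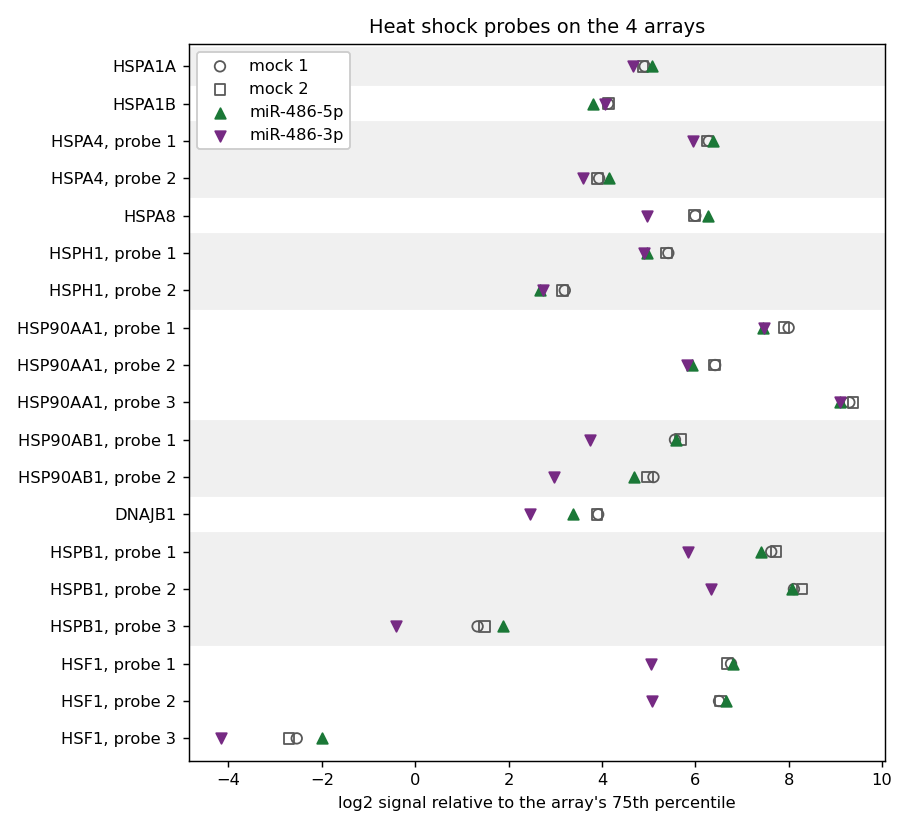
Signal of the 19 probes of the 10 genes on the 4 arrays, as log2 relative to each array's 75th percentile; open circles and squares are mock 1 and mock 2, upward triangles miR-486-5p and downward triangles miR-486-3p, with probes of a gene numbered in the order of their identifiers. The downward triangles lie to the left of both mock symbols in all 19 rows, and the mock symbols of a probe lie at most 0.170 apart.

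HSF1 is the regulator of the set. Its probe A_23_P253841 read 6.76 and 6.69 on the mock arrays, 6.80 under miR-486-5p and 5.04 under miR-486-3p. Probe A_33_P3347932 read 6.51 and 6.54 on the mock arrays, 6.65 under miR-486-5p and 5.07 under miR-486-3p. The third, dim probe A_33_P3347937 read -2.54 and -2.70 on the mock arrays, -2.0 under miR-486-5p and -4.16 under miR-486-3p. Every HSF1 probe was thus low on the miR-486-3p array alone, well outside the gap between the mock arrays. HSF1 fell by 1.56 on the log2 scale under miR-486-3p, the mean of probe differences between -1.69 and -1.45, with limma's adjusted p between 0.00806 and 0.0103. Under miR-486-5p the HSF1 differences were 0.07, 0.13 and 0.62, the last from the dim probe, and the lowest adjusted p was 0.0778. The strands themselves differed at all 3 HSF1 probes, by -1.58 to -2.16 (miR-486-3p minus miR-486-5p, adjusted p 0.0121 to 0.0124).

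HSP90AB1, made at a high level in unstressed cells, had the lowest miR-486-3p difference of the set. Probe A_23_P145089 read 5.56 and 5.68 on the mock arrays, 5.58 under miR-486-5p and 3.74 under miR-486-3p. Probe A_24_P823684 read 5.10 and 4.97, then 4.69 and 2.98. Both probes were far below the mock values on the miR-486-3p array, while the miR-486-5p value of the first lay between the mock values. HSP90AB1 fell by 1.97 under miR-486-3p, with probe differences of -1.88 (95% interval -2.24 to -1.53, adjusted p = 0.00811 by limma) and -2.06 (-2.43 to -1.69, adjusted p = 0.00792). Only 3.33% of 16446 genes had a lower difference. Under miR-486-5p its probes differed by -0.04 and -0.35, and neither passed the test (adjusted p 0.789 and 0.141 by limma).

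HSP90AA1, the stress-inducible partner of HSP90AB1, gave a different picture. Probe A_23_P162874 read 8.0 and 7.90 on the mock arrays, 7.45 under miR-486-5p and 7.48 under miR-486-3p. Probe A_32_P199252 read 6.42 and 6.41, then 5.92 and 5.83. Probe A_33_P3665777, the brightest of the set, read 9.30 and 9.38, then 9.10 and 9.11. Here both transfected arrays lay below both mock arrays, at nearly the same level as each other. HSP90AA1 fell by 0.43 on the log2 scale under miR-486-3p, where 2 of its 3 probes passed the test (adjusted p 0.0239 and 0.0450 by limma) and the brightest did not (adjusted p = 0.146). Both calls were lost with quantile normalization and with the deposited values. Under miR-486-5p the HSP90AA1 difference was -0.41, with adjusted p from 0.0686 to 0.195. The strands differed by -0.02 for the gene, and the 95% intervals of the 3 probes ran together from -0.43 to 0.42. The first of these probes is listed under a different RefSeq transcript variant from the other two.

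HSPA8, the constitutive HSP70 that also strips clathrin from coated vesicles, had 1 probe. It read 6.0 and 5.98 after mock transfection, 6.27 under miR-486-5p and 4.96 under miR-486-3p. The transfected arrays lay on opposite sides of the mock values. HSPA8 fell under miR-486-3p (log2 difference -1.03, 95% interval -1.33 to -0.74, adjusted p = 0.0111 by limma), and its difference under miR-486-5p was 0.28 (-0.01 to 0.58, adjusted p = 0.138). Between the strands HSPA8 differed by -1.31 (adjusted p = 0.0136 by limma).

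HSPA1A and HSPA1B are neighbouring genes for the strongly inducible HSP70, and their transcripts are nearly identical over the coding part, so each probe may also take up the other's transcript. HSPA1A, printed 10 times on each array with 1 spot left out on the miR-486-5p array as an outlier, averaged 4.92 and 4.88 on the mock arrays, 5.08 under miR-486-5p and 4.66 under miR-486-3p. HSPA1B read 4.13 and 4.14, then 3.80 and 4.07. Neither passed the test under either strand, and the sides differed, HSPA1A lying above both mock arrays under miR-486-5p and HSPA1B below them. The differences were 0.18 and -0.33 under miR-486-5p (adjusted p 0.257 and 0.110 by limma) and -0.23 and -0.06 under miR-486-3p (0.128 and 0.580). The 95% interval of HSPA1B under miR-486-3p ran from -0.36 to 0.23 and did not reach the difference of HSPA8.

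HSPA4 and HSPH1 belong to the HSP110 family. HSPA4 read 6.29 and 6.26 at A_24_P377269 on the mock arrays, 6.37 under miR-486-5p and 5.95 under miR-486-3p. At its second probe, A_24_P377277, HSPA4 read 3.94 and 3.91, then 4.16 and 3.60. Both HSPA4 probes were above the mock arrays under miR-486-5p and below them under miR-486-3p, by -0.32 each in the latter case (adjusted p 0.0695 and 0.0707 by limma). Between the strands HSPA4 differed by -0.42 and -0.56, and only the second probe passed the test (adjusted p = 0.0395 by limma). That call was lost with quantile normalization, with no filter on dim probes and with the deposited values.

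HSPH1 read 5.42 and 5.38 at A_23_P88119 on the mock arrays, 4.96 under miR-486-5p and 4.90 under miR-486-3p. At A_33_P3348752 HSPH1 read 3.20 and 3.15, then 2.67 and 2.74. As with HSP90AA1, both strands lay below mock at about the same level. HSPH1 fell by 0.47 under miR-486-3p, where both probes passed the test (adjusted p 0.0325 and 0.0427 by limma), but not with quantile normalization or the deposited values, where the difference was -0.24. Its difference under miR-486-5p was also -0.47, with adjusted p of 0.0805 and 0.0703. The HSPH1 difference between the strands was 0.0028, its probes' 95% intervals running from -0.41 to 0.42.

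DNAJB1 delivers unfolded proteins to HSP70 and, together with HSP70, dampens HSF1. Its single probe read 3.92 and 3.90 on the mock arrays, 3.39 under miR-486-5p and 2.47 under miR-486-3p. DNAJB1 was the member with the lowest value under miR-486-5p, and the 2 transfected arrays stood apart from each other as well as from mock. Under miR-486-3p DNAJB1 fell by 1.44 on the log2 scale (95% interval -1.73 to -1.15, adjusted p = 0.00846 by limma), and under miR-486-5p the difference was -0.52 (-0.81 to -0.22), which did not pass the test (adjusted p = 0.0657). The strands differed by -0.92 (adjusted p = 0.0192 by limma).

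HSPB1, also called HSP27, is the main small heat shock protein of epithelial cells. Probe A_21_P0013662 read 7.63 and 7.72 on the mock arrays, 7.42 under miR-486-5p and 5.84 under miR-486-3p. Probe A_33_P3287646 read 8.11 and 8.28, then 8.08 and 6.33. The least bright of the HSPB1 probes, A_33_P3353242, read 1.34 and 1.48, then 1.89 and -0.42. The 3 probes of HSPB1 gave the same drop under miR-486-3p, between -1.83 and -1.86 (adjusted p 0.00798 to 0.00889 by limma), but disagreed in sign under miR-486-5p, at -0.26, -0.12 and 0.48, none of them past the test. Their mean was 0.03, or -0.035 when mock replicate 1 was left out. Between the strands HSPB1 differed by -1.58 to -2.31 (adjusted p 0.0119 to 0.0144 by limma). HSPB1 was the only member whose probes lay on both sides of 0 against mock.

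**Figure D3:**
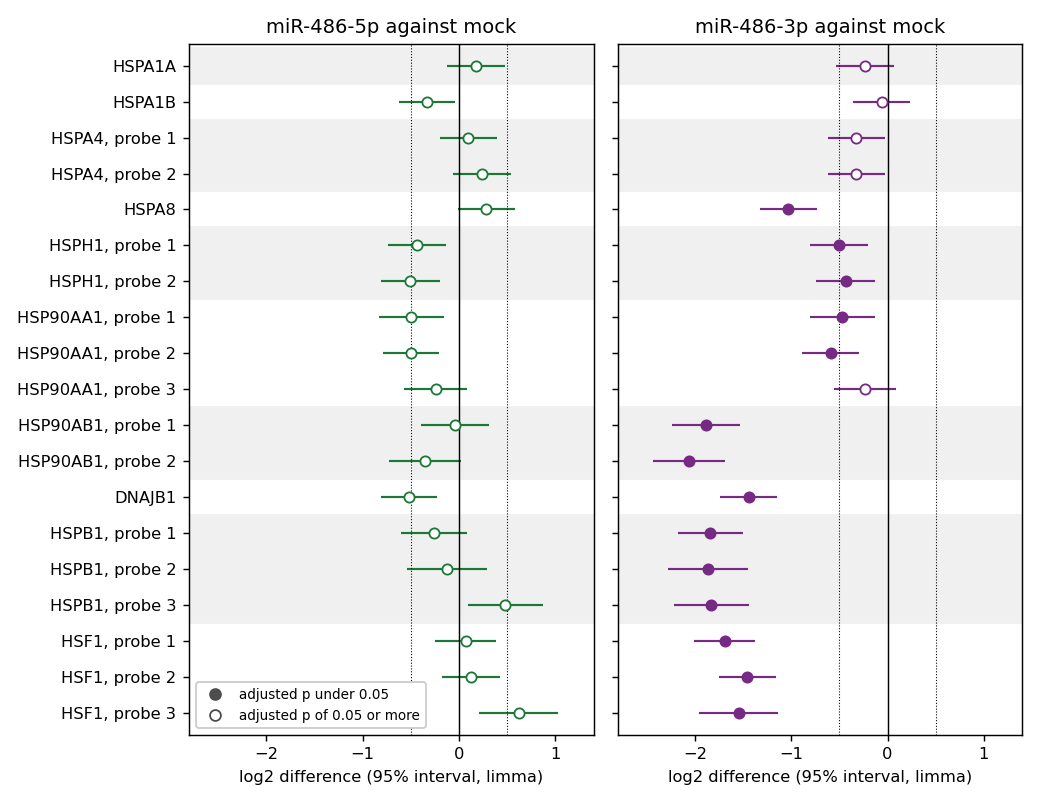
Log2 difference of each of the 19 probes from the mean of the 2 mock arrays, with 95% intervals from limma, for miR-486-5p (left) and miR-486-3p (right); filled points have an adjusted p under 0.05 and dotted lines mark -0.5 and 0.5. No point is filled on the left, and 14 of 19 are filled on the right, all to the left of 0.

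Counted over the 19 probes, limma called 14 lower and 0 higher under miR-486-3p, at a background of 24.2% of 33498 probes called lower and 28.1% called higher. The probes not called were those of HSPA1A, HSPA1B and HSPA4 and the brightest of HSP90AA1. Median scaling, normexp and the intensity trend each called 18 of the 19 lower, the probe left out being that of HSPA1B or, with normexp, the dim one of HSF1, beside 12734, 8322 and 9549 of all 33498 probes called lower in the same order and 8113 at the main setting. All 19 probes lay below both mock arrays and 0 above, where 40.9% of all probes lay below and 52.0% above. By gene, 5 of 10 were under -0.5 and 0 over 0.5, beside 27.2% and 30.4% of 16446 genes, and the median of the 10 was -0.75 against 0.06 over all genes.

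Under miR-486-5p, limma called 0 of the 19 probes lower and 0 higher, beside 4.49% and 3.07% of all probes. At an unadjusted p under 0.05 it held 8 of the 19, against 12905 of 33498 probes in all. With other settings of limma the count of called member probes rose: only probes well above background on all 4 arrays gave 5 lower and 2 higher where 30.5% of all probes were called, an intensity trend gave 9 and 3 where 34.7% were, and normexp background correction gave 9 and 4 where 32.5% were. The methods' t-test called 0 after adjustment and 4 without, against 6167 of all probes without. Of the 19 probes, 10 lay below both mock arrays and 8 above, where 37.8% and 48.5% of all probes did. By gene, 1 of 10 was under -0.5, DNAJB1, and 0 over 0.5, beside 15.9% and 13.8% of 16024 genes, and the median was -0.08 against 0.03 over all genes. At the main setting the shares of genes past either limit and of probes called were near the background.

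Between the strands, limma called 11 of the 19 probes lower on the miR-486-3p array than on the miR-486-5p array and 0 higher, at a background of 21.4% and 22.0%. The 11 were all probes of HSF1, HSP90AB1, HSPB1, HSPA8 and DNAJB1 and 1 of HSPA4. By gene, the same 5 genes were under -0.5 and 0 over 0.5, beside 26.4% and 28.6% of 16561 genes. The comparisons of each strand with mock share the mock arrays, so their values are given side by side and not as separate evidence.

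Brightness moved with the miR-486-3p differences over the whole array, and 17 of the 19 member probes had a mock log2 level of at least 2. The 6758 probes at that level had a median miR-486-3p difference of -0.26, with 38.4% under -0.5 and 21.8% under -1, while the 13090 probes with a mock level below -2 had a median of 0.43. For miR-486-5p the same medians were -0.03 and 0.14. The part of brightness in the members' values was not tested. Quantile normalization, which forces the arrays to 1 distribution, moved HSPA1A and HSPA1B under miR-486-3p to 0.05 and 0.16 and ended the calls of HSPH1 and HSP90AA1, so the direction of HSPA1A and HSPA1B depends on the scaling. Scaling to each array's median moved the median of all genes under miR-486-3p by -0.38 and put 9 of the 10 members under -0.5, where 42.1% of all genes were. The whole-array split under miR-486-3p turned from 8113 probes called lower and 9417 higher to 12734 and 6009, and between the strands from 7169 and 7380 to 10766 and 5344. Over all settings, HSP90AB1 under miR-486-3p ranged from -2.35 to -1.77, HSPB1 from -2.22 to -1.70, HSF1 from -1.94 to -1.09, DNAJB1 from -1.81 to -1.29 and HSPA8 from -1.40 to -0.74.

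**Figure D4:**
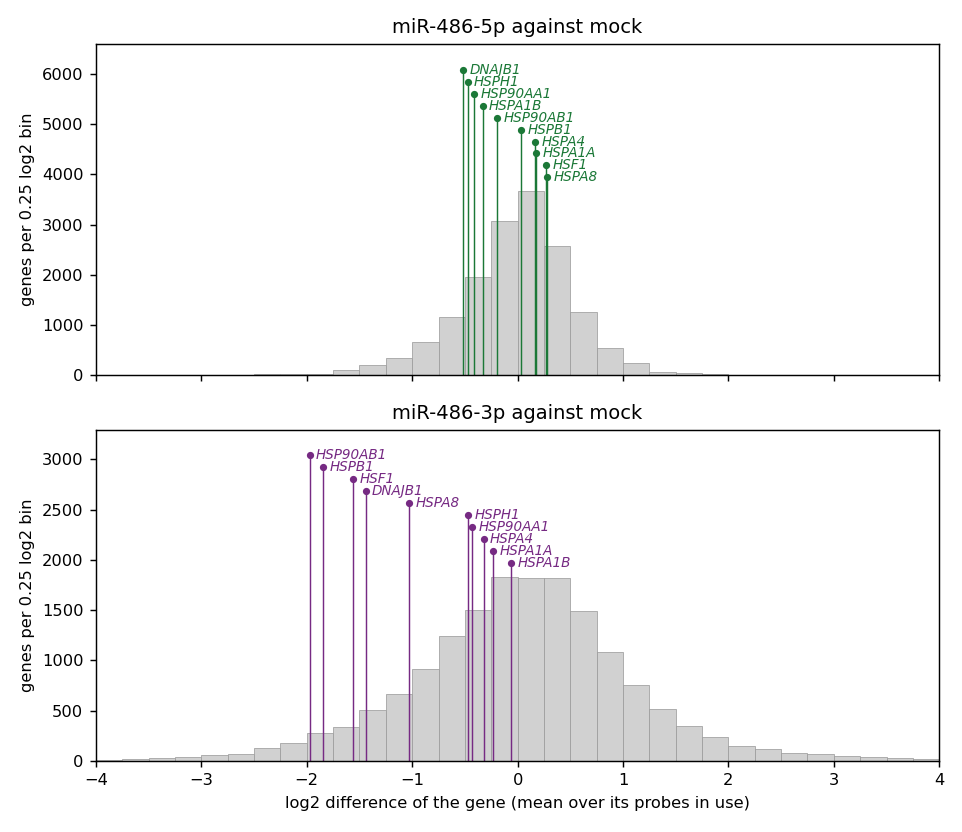
Distribution of the log2 differences of all genes from mock in bins of 0.25 (bars, 16024 genes for miR-486-5p above and 16446 for miR-486-3p below), with a line for each of the 10 members; line heights only separate the names. The members lie from -0.52 to 0.28 under miR-486-5p and from -1.97 to -0.06 under miR-486-3p.

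The other genes of the folding system were counted in lists. Beside these counts, 27.2% of all genes were under -0.5 and 30.4% over 0.5 under miR-486-3p, and 15.9% and 13.8% under miR-486-5p. Among probes with a mock level of at least 2, 38.4% were under -0.5 under miR-486-3p. Limma called 24.2% of all probes lower and 28.1% higher under miR-486-3p, and 4.49% and 3.07% under miR-486-5p. Of 14 measured HSP90 co-chaperones, which load clients onto HSP90 or time its cycle, 9 were under -0.5 and 0 over 0.5 under miR-486-3p, with a median of -0.61. Limma called a probe of 9 of them lower and of 1 higher. TOMM34, which links HSP70 and HSP90 during import into mitochondria, was lowest at -2.24 (mock 3.50 and 3.51, miR-486-3p 1.27). TTC4 was highest at 0.43. Under miR-486-5p the median of these genes was -0.02, with 2 under -0.5, FKBP5 at -0.64 and FKBP4 at -0.63, UNC45A highest at 0.46 and no probe called.

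Mitochondrial chaperones, which fold proteins after import, had the lowest median of the lists under miR-486-3p, -1.17, with 5 of 7 under -0.5, the same number called lower, and 0 over 0.5. HSPA9, the mitochondrial HSP70, was lowest at -1.54 (mock 4.80 and 4.76, miR-486-3p 3.24, adjusted p = 0.0082 by limma), and DNAJA3, its J-domain partner, was highest at 0.31. The other 4 under -0.5 were HSPE1 at -1.46, HSPD1, the HSP60 chaperonin, at -1.45, GRPEL1 at -1.17 and TRAP1 at -0.56. Under miR-486-5p their median was -0.42, with 3 under -0.5 and 0 called, namely HSPD1 at -0.64, GRPEL1 at -0.57 and GRPEL2 at -0.52.

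The TRiC chaperonin folds actin and tubulin in a closed chamber. Of its 8 subunits, 4 were under -0.5 and 1 over 0.5 under miR-486-3p, with 7 called lower and 1 higher and a median of -0.51, which was -0.27 with the deposited log2 values. CCT7 was lowest at -0.85, before CCT3 at -0.83, CCT2 at -0.77 and CCT6A at -0.53, and CCT5 was highest at 0.61. The CCT5 probe was dim, read -1.23 and -1.17 on the mock arrays, -2.41 under miR-486-5p and -0.59 under miR-486-3p, and was the single TRiC probe called under miR-486-5p (difference -1.21, adjusted p = 0.048 by limma). Of 5 measured prefoldin subunits, which pass clients to TRiC, 1 was under -0.5, PFDN1 at -1.05, and 1 over 0.5, PFDN5 at 0.74, under miR-486-3p. Their median was -0.24, -0.62 with median scaling and 0.05 with the deposited values.

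Relatives of the HSP70 machine had values on both sides of mock under miR-486-3p. Of 7 other HSP70 and HSP110 genes, 2 were under -0.5 and 4 over 0.5, with 2 called lower and 4 higher and a median of 0.52, which was 0.15 with median scaling. HSPA2, an HSP70 best known from the testis, was lowest at -2.03, before HSPA4L at -0.69. HSPA12A, a distant relative, was highest at 1.86, before HSPA6 at 1.18, HSPA14 at 0.54 and HSPA13 at 0.52. Of 8 other cytosolic DNAJ co-chaperones, 0 were under -0.5 and 4 over 0.5, with a median of 0.40 (0.026 with median scaling), 4 genes called higher and 1, DNAJB6, called lower at 2 of its 3 probes. DNAJB4, a close relative of DNAJB1, was highest at 1.75 (mock -1.66 and -1.79, miR-486-3p 0.03, adjusted p = 0.0086 by limma), and it was also called higher under miR-486-5p, at 1.05 (adjusted p = 0.049 by limma). DNAJB2, DNAJB5 and DNAJA2 were at 1.16, 0.78 and 0.66. DNAJA4 was lowest at -0.40 and was not called. HSPA12A, HSPA6 and DNAJA4 were dim, with mock levels below -2, and the HSPA6 value rests on 1 of its 2 probes.

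Exchange factors and other HSP70 partners had a median of 0.04 under miR-486-3p, which was -0.34 with median scaling and -0.036 with normexp, and of -0.06 under miR-486-5p. Under miR-486-3p 1 of 8 was under -0.5, BAG2 at -1.05, and 1 over 0.5, BAG5 at 0.58, both of them called by limma. BAG4 was also called lower at 1 of its 2 probes, which lay at -0.41 and 0.56, so 2 genes had a probe called lower and 1 higher. Small heat shock proteins other than HSPB1 were dim, and of 6 with a probe, 3 were detected on all arrays. Under miR-486-3p the 4 measured genes had a median of 0.40, with 0 under -0.5 and 2 over 0.5, HSPB9 at 0.51 and HSPB2 at 1.70 against a dim mock side held at its floor, and CRYAB was lowest at -0.34. None was called by limma, and the median was 0.027 with median scaling. Of the other heat shock factors, HSF2 differed by -0.02 and HSF4 by 0.00 under miR-486-3p, and HSBP1, a binding protein that holds HSF1 back, was highest at 0.42. Under miR-486-5p HSF4 was at 0.72 (adjusted p = 0.053 by limma).

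Textbook targets of HSF1 outside the 10 members, a list of 15 that overlaps the lists above, had 14 measured genes and a median of -0.47 under miR-486-3p. Of the 14, 7 were under -0.5 and 1 over 0.5, and limma called 7 lower and 2 higher. FKBP4, an HSP90 co-chaperone, was lowest at -1.51. HSPA6, the strictly inducible HSP70, was highest at 1.18, from a dim probe (mock -2.73 and -2.65, miR-486-3p -1.51). Under miR-486-5p their median was -0.13, with 3 under -0.5 and 1 over 0.5, and the 1 gene called was SERPINH1, the collagen chaperone, at -0.83 (adjusted p = 0.049 by limma). Set against the promoter windows, 68 measured genes that hold a 3-unit heat shock element, whatever their function and the 3 members included, had a median of -0.04 under miR-486-3p, with 18 under -0.5 and 22 over 0.5. Those counts were near the background, since over all 16446 genes 27.2% were under -0.5 and 30.4% over 0.5, with a median of 0.06.

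**Figure D5:**
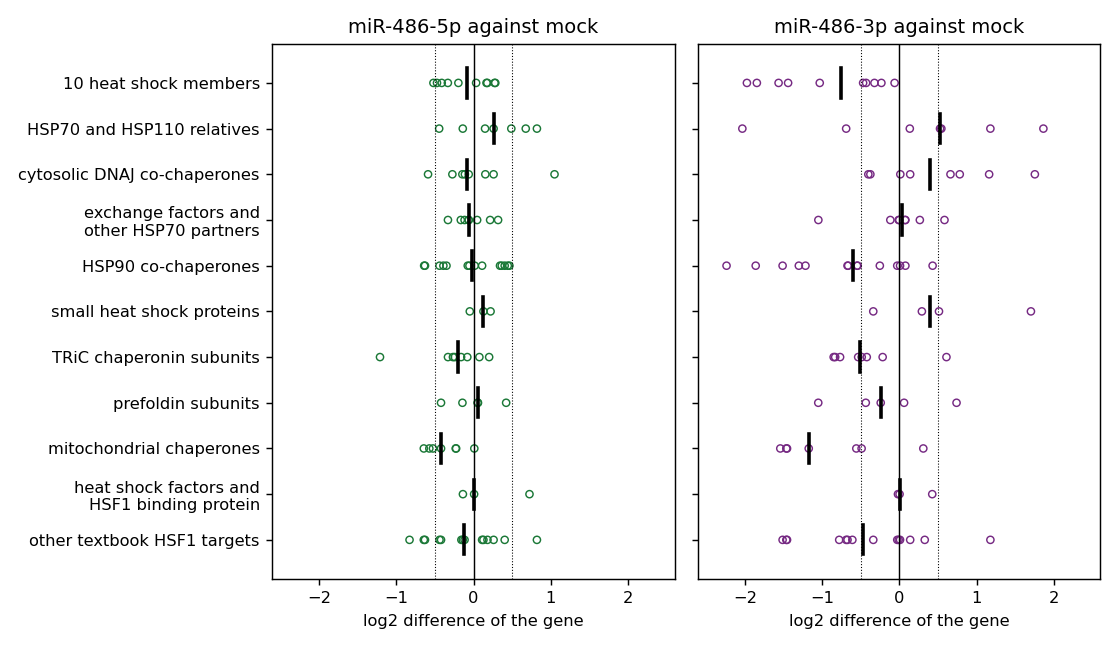
Log2 difference from mock of each measured gene (circles) and the median (black bars) for the 10 members and 10 lists of folding genes, for miR-486-5p (left) and miR-486-3p (right); dotted lines mark -0.5 and 0.5. Under miR-486-3p the lowest medians are those of the mitochondrial chaperones (-1.17), the 10 members (-0.75) and the HSP90 co-chaperones (-0.61), and those of the HSP70 relatives (0.52) and DNAJ co-chaperones (0.40) are above 0, falling to 0.15 and 0.026 with median scaling.

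Values of 2 commonly used reference genes are given for scale. GAPDH read 8.53 and 8.55 on the mock arrays, 8.30 under miR-486-5p and 8.90 under miR-486-3p, and differed by 0.36 under miR-486-3p without passing the test (adjusted p = 0.056 by limma). ACTB fell by 1.06 under miR-486-3p, with both probes called, and differed by -0.43 under miR-486-5p.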

How the data were processed

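RNA of transfected and mock-transfected A549 cells was labelled with Cy3 and hybridised to one-color Agilent arrays. The authors deposited the scanner intensity of each spot, extracted with Agilent Feature Extraction 12.1.1.1 per the file headers, and a table of log2 values per probe whose normalization is not given in the sources used here; its columns share the same quartiles (median 2.76) and follow the scanner signal (r of 0.99986 or more).

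The processed signal was background-corrected by the scanner software. From it, control spots and spots marked as outliers (50 to 72 per array) were left out, signals were set to log2 and scaled to the 75th percentile of their array, and replicate spots of 1 probe were averaged. Of 58201 probes, 31104 were named through RefSeq (GRCh38.p14), giving 22439 genes; array coordinates were not used. A probe was in use for a comparison where it was well above background on every array of at least 1 of its groups, and a dim side was raised to the lowest signal well above background. A gene's difference was the mean over its probes in use, counted past -0.5 or 0.5. With 1 array per strand, limma 3.58.1 (R 4.3.3) was fitted to 33498 probes over all 4 arrays, with 1 residual degree of freedom, from the mock arrays, moderated by a prior of 1.75 degrees of freedom; Benjamini-Hochberg adjusted p-values under 0.05 were called. The spread of a transfected array is thus taken from the mock arrays, and the number of arrays limits the precision. The fit was also run on simulated data, with the spread of all 4 arrays drawn from limma's own prior. Such data share the assumption on the transfected arrays and cannot test it. Slide and scan could not be fitted as a block, since all arrays share 1 of each.

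All 10 members are named, and the values of every probe of them are given. Genes of the lists were named from the lowest and highest of each list and comparison among genes well above background on all 4 arrays and outside both mock values, and from genes behind counts of 5 or fewer, with GAPDH and ACTB; not every such gene is printed. Members, lists and tests were chosen with earlier results of these data known. The split by brightness was added after seeing the data. Alternatives were other scaling, background correction, filters, limits, tests and the deposited log2 values.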

Additional observations from a re-analysis of the deposited data

How the results depend on the processing

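HSPA8, HSP90AB1, DNAJB1, HSPB1 and HSF1 were lower on the miR-486-3p array than on the mock arrays under every alternative run, and limma called at least 1 probe of each wherever it was fitted. The methods' t-test, which has 1 degree of freedom, called 0 member probes lower in either comparison of the miR-486-3p array after adjustment, and 11 (against mock) and 12 (against miR-486-5p) without it, beside 10469 and 9226 of all probes. Members under -0.5 against mock numbered 9 for miR-486-3p with median scaling (42.1% of all genes), and for miR-486-5p 2 with median scaling (19.6% of all genes) and 0 with a limit of 1, quantile normalization or the deposited log2 values. Member probes called lower by limma for miR-486-3p against mock ranged from 10 to 18. Quantile normalization gave 10, beside 9162 of all 33498 probes called lower, and the deposited values 10, beside 8344 of 33500. Both lost HSPH1 and HSP90AA1. Median scaling, normexp and the trend gave 18, beside 12734, 8322 and 9549 of 33498 probes in that order. Member probes called for miR-486-5p were 5 lower and 2 higher with only probes well above background on all 4 arrays, 9 and 4 with normexp, and 9 and 3 with an intensity trend, which also called 1 probe higher between the strands. Over the array, the miR-486-5p count went from 2532 probes to 5336 with median scaling, 10873 with normexp, 11608 with the trend, 8605 with the stricter filter, and 0 with no filter or the deposited values. Signs turned for HSPB1 under miR-486-5p (-0.043 with median scaling, -0.013 with normexp, -0.12 by its brightest probe, -0.035 without mock replicate 1), HSPA1A (0.0455 with quantile normalization and 0.045 with the deposited values) and HSPA1B (0.16 with each) under miR-486-3p. Between the strands they turned for HSPA1B (-0.028 with median scaling), HSPH1 (-0.29 with median scaling, -0.054 with normexp, -0.063 by the brightest probe) and HSP90AA1 (0.10 with quantile normalization and the deposited values, 0.0075 by the brightest probe). The cause was not tested. Median scaling lowered the miR-486-3p medians of all 10 lists, turning those of the exchange factors (-0.34) and the heat shock factors (-0.37) below 0. With the deposited values the prefoldin median, -0.24, was 0.05 and the TRiC median, -0.51, was -0.27. Without mock replicate 1 or 2, the counts of members past -0.5 stayed at 1 and 5; limma has no residual degree of freedom then. No paired analysis was possible because each strand has 1 array and the mock numbers match no other group. Each strand having 1 array, no difference has a replicate check of its own.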
